A study of Mus musculus with 6 samples.

Results

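The genes described here are 33 genes of the choroid plexus and of the ciliated ependyma, found by symbol in the deposited table of 55414 genes. They were read in RNA from adult mouse microglia, the resident macrophages of the brain. The 33 fall into 16 secretory choroid plexus genes, 15 motile cilia genes and 2 genes of ependymal secreted proteins (Rarres2 and Mia), and a row was found for each. All mice were C57BL/6 and 10 months of age; 3 libraries were from wild-type animals (WT) and 3 carried the label Selk-/-, for loss of Selenok, which encodes a selenoprotein of the endoplasmic reticulum. The sources used here do not say how the knockout was made, how the cells were isolated, or whether each library was a separate animal. The p-values therefore reflect the spread between libraries, which may be technical. Replicate 3 of both groups has a title holding 2 numbers, with no statement that it was a pool. Selenok itself was at 112, 125 and 119.7 CPM in WT and 112, 108 and 109 CPM in the Selk-/- libraries (log2 fold change -0.12, 95% interval -0.27 to 0.039, edgeR adjusted p = 0.381), so gene totals do not check the labels, and the groups are named as labelled.

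The choroid plexus is a folded epithelium in the brain's ventricles that makes cerebrospinal fluid. Its cells take up water and ions from blood, pass them to the ventricle through channels and transporters on the apical face, and secrete carrier proteins and hormone-binding proteins with them. Ependymal cells line the ventricle walls and carry tufts of motile cilia whose beat moves that fluid. A motile cilium is built around a ring of paired microtubules with a central pair, driven by dynein motors and controlled through radial spokes. The transcription factor FOXJ1, together with RFX factors, switches on the genes of this machine. Microglia are known to do neither job, and in a bulk library of this kind fewer cells of a type and less RNA per cell cannot be told apart.

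Counts per library totalled 21112082 to 28123871. Levels between libraries are given as CPM (counts scaled to a common library total after TMM normalisation), and levels between genes as FPKM (the deposited values, scaled for the length of the gene as well as for depth). Per-library values are listed in the order replicates 1, 2 and 3 of each group. All 33 members passed the filter on low counts, and the lowest single count of any member was 32. Markers of microglia (12 genes) summed to 30962, 32352 and 30627 CPM in WT and 27722, 25662 and 27046 CPM in the Selk-/- libraries, with all 12 detected in every library and each WT sum above each Selk-/- sum. Small nucleolar RNA genes were low in replicates 2 and 3 labelled Selk-/- (46.0 and 54.9 CPM of the unscaled total, against 318 to 327 CPM in the other 4 libraries).

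Neither class of genes differed between the groups beyond the spread of the libraries, and the libraries in which each class was high were not the same. None of the 33 members passed the edgeR threshold of adjusted p 0.05 (0 of 33, as in 0% of the 17739 genes tested). DESeq2 called 0 of them, where it called 7.7% of the genes to which it gave an adjusted p. It gave no adjusted p to the member Spag17, whose unadjusted DESeq2 p was 0.0988. At an unadjusted p under 0.05, edgeR took 1 member, the ciliary gene Tmem212, which was lower, where 9.74% of all tested genes were lower and 9.34% higher. That count depended on single libraries: it was 11 without WT replicate 2 (Kl, Clic6 and Prlr, which were higher, and Ccdc153, Tmem212, Dynlrb2, Spag16, Cfap54, Ak7, Rsph1 and Rarres2, which were lower) and 0 without WT replicate 1 or without replicate 1 or 2 labelled Selk-/-. It was 1 without WT replicate 3 (Tekt1) and 1 without replicate 3 labelled Selk-/- (Dnah11), and no member passed the adjusted threshold in any of these fits. The same edgeR counts at an unadjusted p under 0.05 were also taken over all genes tested in each fit. They were 2248 of 18031, 2873 of 18188 and 3482 of 18098 without WT replicates 1, 2 and 3. Without replicates 1, 2 and 3 labelled Selk-/- they were 3210 of 18144, 2837 of 18153 and 2635 of 18111. DESeq2 took 5 at an unadjusted p under 0.05 (Ccdc153, Tmem212, Cfap44, Cfap54 and Rsph1), all lower, where over all genes given a p the share was 9.14% in either direction and 4.59% lower. These DESeq2 shares are over 33365 genes, which include low-count genes that the edgeR filter left out. They are therefore not matched to the members, all of which passed that filter. The groups overlapped in every member, whereas 26.2% of all tested genes showed no overlap (12.5% higher and 13.7% lower in the libraries labelled Selk-/-). What set the libraries apart was WT replicate 1, in which all 15 motile cilia genes were highest, and, among the secretory genes, WT replicate 2 and replicates 2 and 3 labelled Selk-/-.

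**Figure D1:**
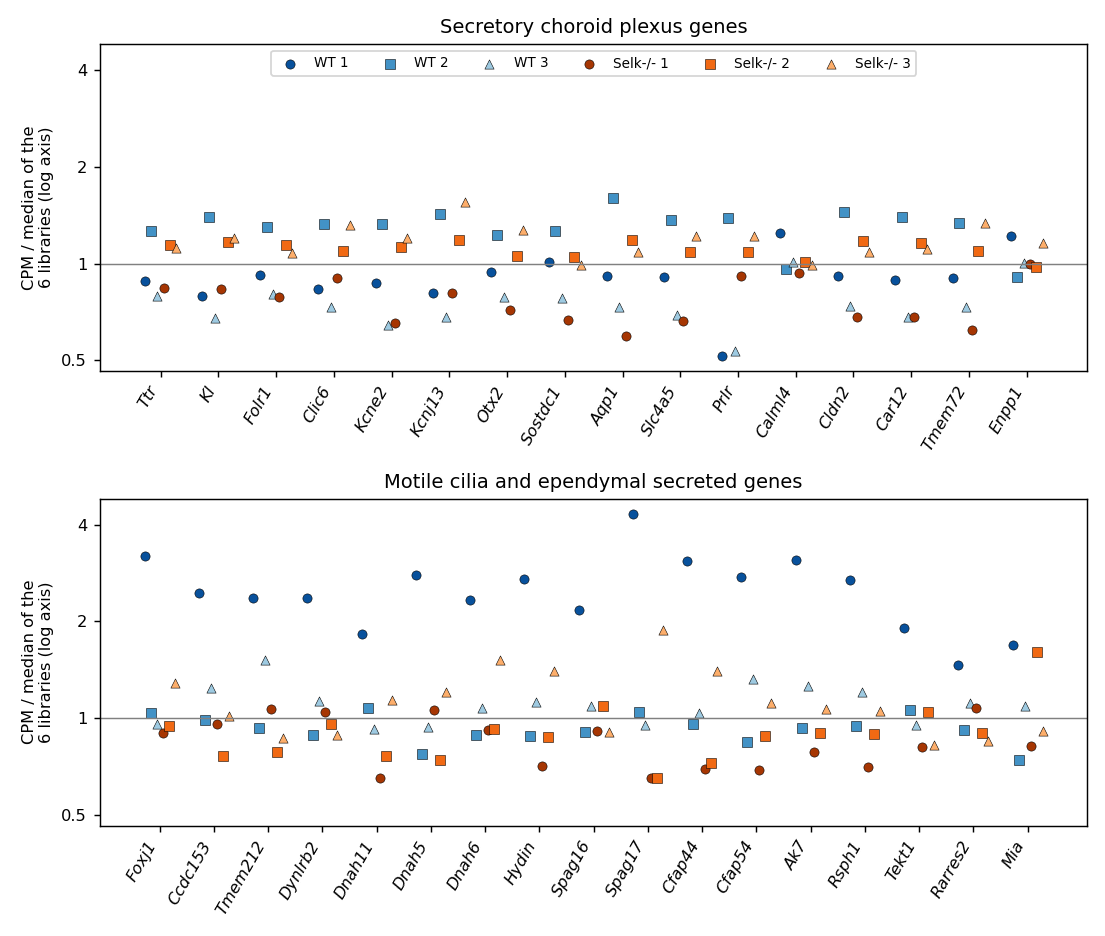
Level of each of the 33 genes in each of the 6 libraries, as CPM divided by that gene's median over the 6 libraries (log axis); circles, squares and triangles are replicates 1, 2 and 3, blue for WT and orange for Selk-/-. WT replicate 1 stands at 1.83 to 4.33 times the median in the 15 motile cilia genes and at 0.516 to 1.25 times the median in the secretory genes.

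Among the secretory choroid genes, the carriers and secreted or surface proteins come first. Ttr encodes transthyretin, the carrier of thyroxine and retinol-binding protein that the choroid plexus secretes in bulk. Ttr was at 2242, 3208 and 2005 CPM in WT and 2124, 2893 and 2831 CPM in the Selk-/- libraries, with means of 2485 ± 637 and 2616 ± 427 CPM (SD, n = 3 each). WT replicate 2 was the highest library and WT replicate 3 the lowest, so the whole range over the 6 libraries, 1.6-fold, lay inside WT, and the groups overlapped (log2 fold change 0.074, 95% interval -0.40 to 0.55, edgeR adjusted p = 0.871). Per length, Ttr reached 1653, 2289 and 1439.6 FPKM in WT and 1516, 2056 and 2033 FPKM in the Selk-/- libraries, and by mean FPKM it ranked 22nd of the 17739 genes tested in these microglial libraries. It held 93.2% to 93.9% of the summed FPKM of the 16 secretory genes in each library.

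Kl encodes klotho, the co-receptor for the hormone FGF23, and lies on chromosome 5, 150876072 to 150917282 in the deposited table, which names no genome build. Kl was at 62.3, 109 and 53.2 CPM in WT and 65.5, 91.3 and 94.0 CPM in the Selk-/- libraries. Folr1, the receptor that carries folate into cerebrospinal fluid, was at 24.5, 34.5 and 21.3 CPM in WT and 20.9, 30.2 and 28.6 CPM in the Selk-/- libraries. In both genes the order of the libraries was close to that of Ttr, with WT replicate 2 on top, and the groups overlapped, with log2 fold changes of 0.16 and -0.012 (edgeR adjusted p = 0.810 and 0.982). Sostdc1, a secreted antagonist of BMP and Wnt signals, was at 18.2, 22.8 and 14.02 CPM in WT and 12.1, 18.8 and 17.7 CPM in the Selk-/- libraries. Here replicate 1 labelled Selk-/- was lowest and WT replicate 2 highest. Enpp1, a surface enzyme that splits nucleotides and releases pyrophosphate, was at 18.8, 13.99 and 15.5 CPM in WT and 15.3, 14.99 and 17.8 CPM in the Selk-/- libraries. Enpp1 was highest in WT replicate 1 and lowest in WT replicate 2, unlike Ttr, and its range was 1.34-fold (95% interval of its log2 fold change -0.31 to 0.30, edgeR adjusted p = 0.990).

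The ion and water transport genes form the next set. Clic6, of the intracellular chloride channel family, was at 39.6, 63.4 and 34.8 CPM in WT and 43.0, 52.3 and 63.0 CPM in the Selk-/- libraries. Kcne2, an accessory subunit of potassium channels, was at 21.8, 33.01 and 16.0 CPM in WT and 16.3, 28.1 and 29.9 CPM in the Selk-/- libraries, and Kcnj13, the inward rectifier Kir7.1, at 18.9, 33.05 and 15.9 CPM in WT and 18.8, 27.6 and 36.2 CPM in the Selk-/- libraries. In all of these, WT replicate 3 was the lowest library, and the high libraries came from both groups. Aqp1, the water channel of the apical membrane, was at 15.5, 27.1 and 12.4 CPM in WT and 10.1, 20.1 and 18.5 CPM in the Selk-/- libraries, a range of 2.69-fold. Slc4a5, a sodium bicarbonate cotransporter, was at 15.1, 22.6 and 11.5 CPM in WT and 11.0, 18.1 and 20.2 CPM in the Selk-/- libraries. Car12, a membrane carbonic anhydrase, which supplies bicarbonate, was at 24.5, 38.6 and 18.8 CPM in WT and 18.8, 31.8 and 30.7 CPM in the Selk-/- libraries. These had WT replicate 2 highest and replicate 1 labelled Selk-/- lowest, and their fitted differences were small beside their intervals (log2 fold change -0.18, 95% interval -1.09 to 0.74, edgeR adjusted p = 0.832 for Aqp1). Cldn2, the pore-forming claudin of leaky tight junctions, was at 12.8, 20.3 and 10.4 CPM in WT and 9.60, 16.6 and 15.3 CPM in the Selk-/- libraries, again with WT replicate 2 highest. The log2 fold changes of these 7 transport and junction genes ran from -0.18 in Aqp1 to 0.28 in Kcnj13, with edgeR adjusted p from 0.695 to 0.999.

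The remaining secretory members are a regulator, a receptor and a pair of less well described genes. Otx2, the homeodomain factor that specifies and maintains choroid plexus epithelium (chromosome 14, 48895134 to 48911276), was at 11.4, 14.8 and 9.49 CPM in WT and 8.69, 12.8 and 15.4 CPM in the Selk-/- libraries. Its high libraries were WT replicate 2 and replicate 3 labelled Selk-/-, and the groups overlapped (log2 fold change 0.043, 95% interval -0.53 to 0.61, edgeR adjusted p = 0.940). Prlr, the prolactin receptor, was at 25.2, 67.9 and 26.1 CPM in WT and 44.7, 53.0 and 59.3 CPM in the Selk-/- libraries. Prlr had the widest range of the class, 2.69-fold, with WT replicates 1 and 3 low and the other 4 libraries high, so that WT spanned both ends and the difference did not pass (log2 fold change 0.40, 95% interval -0.68 to 1.47, edgeR adjusted p = 0.649). Tmem72, a transmembrane protein, was at 15.1, 22.3 and 12.2 CPM in WT and 10.4, 18.3 and 22.4 CPM in the Selk-/- libraries, with replicate 3 labelled Selk-/- and WT replicate 2 nearly level at the top. Calml4, of the calmodulin family, was at 13.7, 10.6 and 11.1 CPM in WT and 10.3, 11.1 and 10.9 CPM in the Selk-/- libraries; it varied only 1.33-fold, the least of the 16, and its highest library was WT replicate 1.

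As a class, the 16 secretory genes split evenly, 8 above and 8 below WT, and their median log2 fold change was 0.018, beside -0.0082 over all genes tested. Replicate 2 labelled Selk-/- was above the gene's own 6-library median in 15 of the 16, and WT replicate 2 and replicate 3 labelled Selk-/- in 14 each. WT replicates 1 and 3 were above it in 3 and 2 genes, and replicate 1 labelled Selk-/- in 0. Over all tested genes these shares were 49.5%, 51.5% and 50.7% in WT and 49.5%, 48.2% and 50.6% in the Selk-/- libraries. WT replicate 2 was the highest library in 11 of 16 members (16.2% of all tested genes) and replicate 3 labelled Selk-/- in 3 (11.7%). Replicate 1 labelled Selk-/- was lowest in 9 (15.4%) and WT replicate 3 in 5 (11.7%). Without Ttr, the secretory genes summed to 119, 163 and 94.0 FPKM in WT and 97.8, 138 and 149 FPKM in the Selk-/- libraries, with means of 125 ± 34.7 and 128 ± 26.9 FPKM (SD, n = 3 each). The sums were high in the same 3 libraries as most of the single genes, and the groups overlapped.

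Ratios between some secretory genes within a library varied less than their levels. Reads of Ttr per read of Folr1 were 91.5, 93.0 and 94.0 in WT and 102, 95.7 and 99.1 in the Selk-/- libraries, a range of 1.11-fold. Each Selk-/- value was above each WT value, as for Ttr to Sostdc1 (123 to 143 in WT, 154 to 176 in the Selk-/- libraries). How often ratios of other gene pairs lie apart in this way was not computed. Of single genes tested, 26.2% showed no overlap between the groups. Folr1 overlaps Anapc15 in position, and its counts are uncertain for that reason. The groups overlapped in the ratios of Ttr to Kl, Kcne2 (94.6 to 131), Enpp1 and Prlr. No ratio was tested. Reads of Ttr per read of Kl were 36.0, 29.3 and 37.7 in WT and 32.4, 31.7 and 30.1 in the Selk-/- libraries. The ratio of Ttr to Enpp1 was less steady, at 119, 229 and 129 in WT and 139, 193 and 159 in the Selk-/- libraries, and that of Ttr to Prlr ran from 47.3 to 89.0. Reads of Kcne2 per read of Calml4 were 1.58, 3.12 and 1.44 in WT and 1.58, 2.53 and 2.74 in the Selk-/- libraries. Ttr, Folr1 and Kl thus kept close proportions while their levels changed by library, and Enpp1, Calml4 and Prlr did so less.

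Markers of border macrophages, cells that include those of the choroid plexus stroma, summed over 12 genes to 904, 1179 and 812 CPM in WT and 371, 761 and 599 CPM in the Selk-/- libraries, all 12 with counts in every library. WT replicate 2 was highest for this sum too, but all 3 libraries labelled Selk-/- were below every WT library. The same separation was seen in the sums of microglia, oligodendrocyte and B cell markers. Of single genes tested, 13.7% were lower with no overlap. The part of border macrophages in the secretory pattern was not tested.

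**Figure D2:**
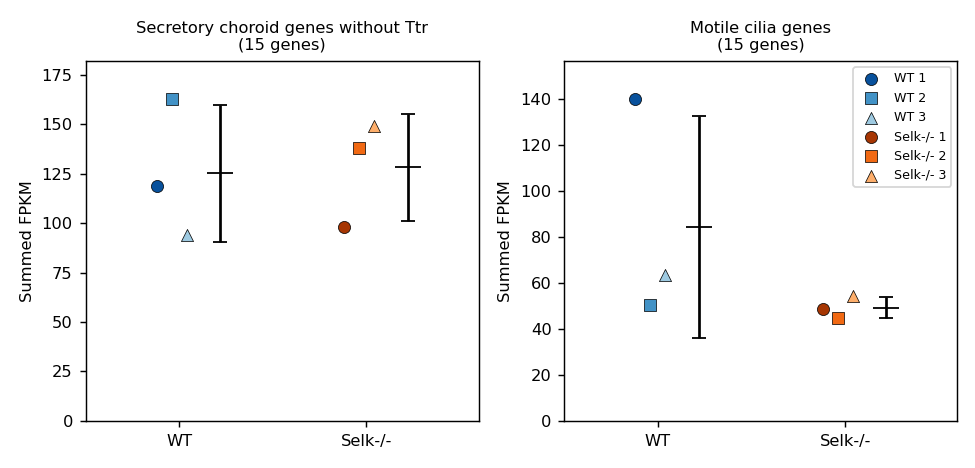
Summed FPKM of the secretory choroid genes without Ttr (left) and of the motile cilia genes (right) in each library, with the group mean and SD as bars beside the points. The secretory sums run from 94.0 to 163 FPKM with both groups interleaved, and the ciliary sum of WT replicate 1 is 139.6 FPKM against 44.9 to 63.2 FPKM in the other 5 libraries.

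The motile cilia genes were set apart by a single library. Short stretches of promoter are shown for those motile cilia members that carry GTTGCC, an arm of the X-box that RFX factors bind. X-boxes are a known shared feature of ciliary genes. All 15 motile cilia genes were highest in WT replicate 1, whether or not a match was found. A link between the arm and that library was not tested. Promoter windows of 300 bases (250 before and 50 after the start) came from RefSeq on GRCm38.p6 and were found for 25 of the 33 members. The arm was searched on both strands as GTTGCC, so that its reverse complement GGCAAC also counts. It was present in 6 of the 13 windows of motile cilia genes (46.2%), in 4 of 18 of the secretory genes (22.2%) and in 12.5% of all 32851 windows. The stretches below lie before the start, run 5′ to 3′ on the gene's strand, and have the matches in capitals. Cfap44 holds 2 matches, of which the one nearer the start is shown.
Spag16: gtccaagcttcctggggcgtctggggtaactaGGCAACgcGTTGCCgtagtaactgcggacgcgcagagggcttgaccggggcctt
Hydin: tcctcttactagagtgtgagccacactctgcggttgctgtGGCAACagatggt
Dynlrb2: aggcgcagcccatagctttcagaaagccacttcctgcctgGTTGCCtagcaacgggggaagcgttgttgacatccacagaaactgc
Ccdc153: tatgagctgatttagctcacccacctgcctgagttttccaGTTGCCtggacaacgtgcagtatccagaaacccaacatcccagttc
Tekt1: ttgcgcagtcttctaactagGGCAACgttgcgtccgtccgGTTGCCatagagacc
Cfap44: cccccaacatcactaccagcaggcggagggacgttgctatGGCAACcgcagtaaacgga
The positions are chr1:69826827-69826912, plus strand for Spag16; chr8:110266924-110266976, plus strand for Hydin; chr8:116504924-116505009, plus strand for Dynlrb2; chr9:44240485-44240570, plus strand for Ccdc153; chr11:72361883-72361937, minus strand for Tekt1; and chr16:44394740-44394798, plus strand for Cfap44. The match nearest the start began 13 bases before it in Hydin, 15 in Tekt1, 19 in Cfap44, 51 in Dynlrb2, 103 in Spag16 and 152 in Ccdc153. A pair of X-box arms, GTNNCC and GGNNAC with 2 bases between them, was in 0 of the 13 ciliary windows and in 1.88% of all windows. Only this exact form was searched. Other spacings, and second arms that do not start with GG, were not, so the 0 does not mean that paired arms are absent. The forkhead core TGTTTA was in 5 of the 13 ciliary windows (38.5%), in 5 of the 18 secretory windows (27.8%) and in 13.4% of all windows. TAATCC, which bicoid-class homeodomain factors such as OTX2 bind, was in 1 of the 18 secretory windows (5.56%) and in 7.06% of all windows. These matches describe letters in the windows and do not show that a factor binds there.

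Foxj1, the regulator of the programme (chromosome 11, 116221530 to 116226225 in the deposited table), was at 68.1, 22.2 and 20.6 CPM in WT and 19.2, 20.2 and 27.5 CPM in the Selk-/- libraries. WT replicate 1 was 3.19 times the median of the 6 libraries, and the other 5 lay close together, between 0.899 and 1.29 times the median. The means were 36.9 ± 27.0 and 22.3 ± 4.55 CPM (SD, n = 3 each), the SD in WT being most of the mean, and the difference did not pass (log2 fold change -0.73, 95% interval -2.07 to 0.61, edgeR adjusted p = 0.502). Without WT replicate 1 its log2 fold change was 0.058 (edgeR adjusted p = 0.908).

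The dynein genes encode the motors that bend the cilium. Dnah5, a heavy chain of the outer arm, was at 12.1, 3.37 and 4.10 CPM in WT and 4.62, 3.22 and 5.27 CPM in the Selk-/- libraries. Dnah11, another outer arm heavy chain, was at 8.84, 5.18 and 4.46 CPM in WT and 3.15, 3.69 and 5.51 CPM in the Selk-/- libraries, and Dnah6, an inner arm heavy chain, at 27.3, 10.4 and 12.6 CPM in WT and 10.8, 10.8 and 17.8 CPM in the Selk-/- libraries. Each was highest in WT replicate 1, and replicate 3 labelled Selk-/- came next. Dynlrb2, a roadblock light chain, was at 9.87, 3.71 and 4.75 CPM in WT and 4.36, 4.001 and 3.70 CPM in the Selk-/- libraries. It stood at 2.36 times the median in WT replicate 1, and none of these 4 dynein genes passed, with log2 fold changes from -0.60 in Dynlrb2 to -0.35 in Dnah6 and edgeR adjusted p from 0.354 to 0.675.

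The central pair and its projections are covered by Hydin, Spag16, Spag17 and Cfap54. Hydin was at 11.3, 3.67 and 4.67 CPM in WT and 2.97, 3.65 and 5.84 CPM in the Selk-/- libraries. Spag16 was at 9.41, 3.93 and 4.75 CPM in WT and 3.96, 4.74 and 3.94 CPM in the Selk-/- libraries, and Cfap54 at 20.8, 6.39 and 9.99 CPM in WT and 5.24, 6.68 and 8.45 CPM in the Selk-/- libraries. WT replicate 1 again stood alone at the top, at 2.16 to 2.74 times the median. Spag17 showed the widest spread of all 33 genes, at 8.27, 2.00 and 1.82 CPM in WT and 1.25, 1.24 and 3.61 CPM in the Selk-/- libraries, a 6.65-fold range. Its second highest library was replicate 3 labelled Selk-/-, and its interval was correspondingly wide (log2 fold change -1.005, 95% interval -2.84 to 0.83, edgeR adjusted p = 0.511). Its lowest count was 32, and its position overlaps that of Wdr3 on the opposite strand, whose mean count was 1124 against 79.8 for Spag17.

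The spoke, filament and energy genes gave the same picture. Rsph1, a radial spoke head protein, was at 24.7, 8.70 and 11.0 CPM in WT and 6.45, 8.20 and 9.63 CPM in the Selk-/- libraries. Ak7, an adenylate kinase of the cilium, was at 34.1, 10.2 and 13.9 CPM in WT and 8.65, 9.87 and 11.7 CPM in the Selk-/- libraries, and Tekt1, a tektin filament protein, at 10.1, 5.60 and 5.03 CPM in WT and 4.29, 5.52 and 4.37 CPM in the Selk-/- libraries. Replicate 1 labelled Selk-/- was lowest and WT replicate 1 highest in all of these. Cfap44, a protein of the axoneme that is needed for sperm flagella in mouse and human, was at 16.6, 5.18 and 5.64 CPM in WT and 3.77, 3.92 and 7.59 CPM in the Selk-/- libraries. Here too WT replicate 1 was highest, with replicate 3 labelled Selk-/- next.

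Ccdc153 and Tmem212 are widely used as markers of ependymal cells. Ccdc153, the most abundant of the 15 per length (35.2, 13.6 and 17.4 FPKM in WT and 13.8, 10.2 and 13.8 FPKM in the Selk-/- libraries), was at 37.9, 15.2 and 19.1 CPM in WT and 14.8, 11.8 and 15.6 CPM in the Selk-/- libraries. Tmem212 was at 15.7, 6.16 and 10.0 CPM in WT and 7.07, 5.21 and 5.74 CPM in the Selk-/- libraries, and in WT replicate 3 it stood at 1.51 times the median. Tmem212 was the member with the smallest edgeR p, and it did not pass (log2 fold change -0.82, 95% interval -1.60 to -0.039, edgeR adjusted p = 0.245). The smallest DESeq2 adjusted p of any member was 0.0738, in Ccdc153. Without WT replicate 1 the log2 fold changes of Ccdc153 and Tmem212 were -0.29 and -0.43, and neither passed.

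As a class, all 15 motile cilia genes lay below WT, where 51.3% of all tested genes did, and their median log2 fold change was -0.73. Without WT replicate 1 the median was -0.094 and 11 of 15 were below WT, beside 50.3% of all genes tested without that library. WT replicate 1 was the highest library for 15 of 15 (22.1% of all tested genes), and it held at least 2 times the median in 13 of 15 (3.13% of all tested genes). The exceptions to the latter were Dnah11 (1.83 times) and Tekt1 (1.91 times). Summed, the class was at 139.6, 50.4 and 63.2 FPKM in WT and 48.6, 44.9 and 54.1 FPKM in the Selk-/- libraries, with means of 84.4 ± 48.2 and 49.2 ± 4.62 FPKM (SD, n = 3 each). Within WT the ciliary sums differed by more than the WT mean differed from any library labelled Selk-/-, and the other 5 libraries lay within 44.9 to 63.2 FPKM, WT replicates 2 and 3 among them.

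**Figure D3:**
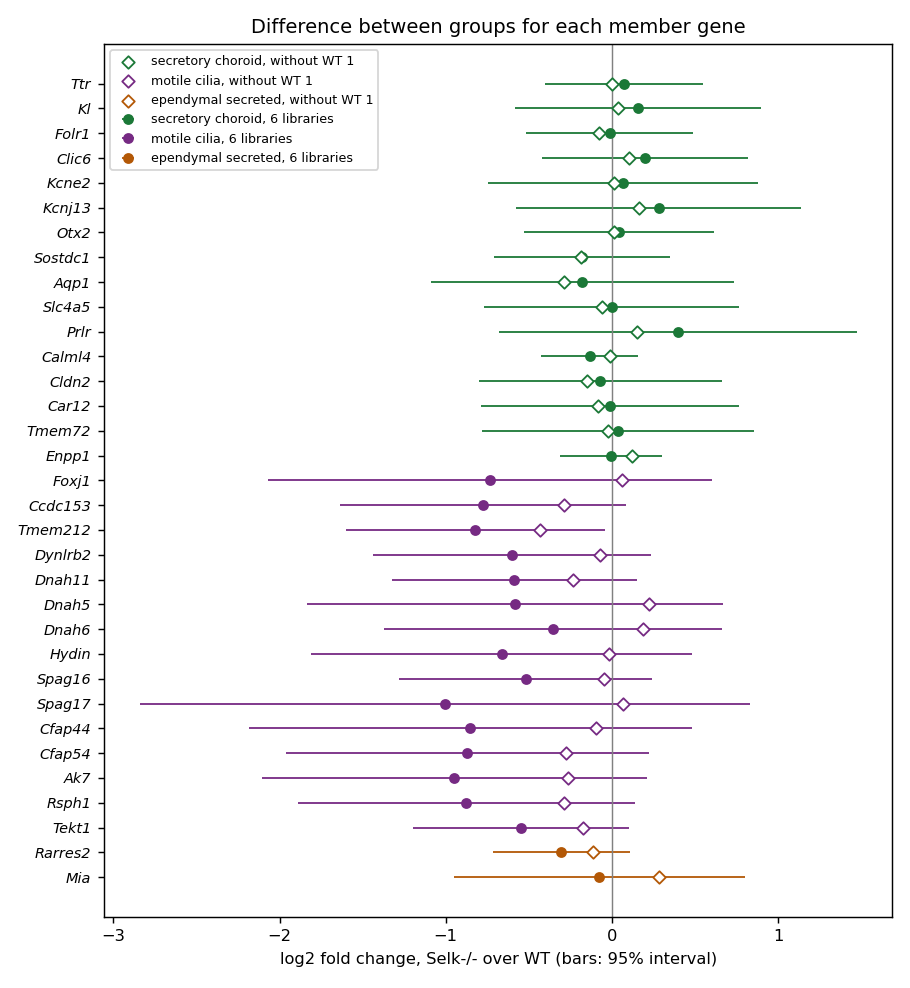
Log2 fold change (Selk-/- over WT) of each of the 33 genes from edgeR with all 6 libraries (filled circles, bars are 95% intervals) and without WT replicate 1 (open diamonds). With all libraries the motile cilia genes lie between -1.005 and -0.35 and the secretory genes between -0.18 and 0.40; without WT replicate 1 the ciliary genes move to between -0.43 and 0.22.

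The same comparison of proportions was made within the ciliary class. Reads of Foxj1 per read of Ak7 were 2.00, 2.16 and 1.48 in WT and 2.22, 2.04 and 2.35 in the Selk-/- libraries, and WT replicate 1 was not apart from the rest. Reads of Foxj1 per read of Rsph1 were 2.76, 2.55 and 1.86 in WT and 2.98, 2.46 and 2.86 in the Selk-/- libraries. Proportions between the classes differed more by library. Reads of Ttr per read of Foxj1 were 32.9, 145 and 97.6 in WT and 111, 143 and 103 in the Selk-/- libraries. The summed FPKM of the 15 ciliary genes over that of the 15 secretory genes other than Ttr was 1.17, 0.310 and 0.672 in WT and 0.497, 0.325 and 0.363 in the Selk-/- libraries, highest in WT replicate 1 and lowest in WT replicate 2. The secretory genes of WT replicate 1 had a median of 0.907 times their 6-library median, while its ciliary genes had 2.70 times.

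The 2 ependymal secreted genes were also highest in WT replicate 1, by less than the ciliary genes. Rarres2, which encodes the chemoattractant chemerin, was at 44.3, 27.98 and 33.8 CPM in WT and 32.7, 27.4 and 25.8 CPM in the Selk-/- libraries. Mia, a small secreted protein first known from melanoma and cartilage, was at 8.62, 3.78 and 5.57 CPM in WT and 4.18, 8.24 and 4.65 CPM in the Selk-/- libraries. WT replicate 1 was highest for both, but at 1.46 and 1.69 times the median rather than over 2, and for Mia replicate 2 labelled Selk-/- was nearly as high. Neither passed (log2 fold change -0.30 and -0.075, edgeR adjusted p = 0.390 and 0.930).

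Other genes of both programmes were read from further lists, in the same libraries. Those lists were chosen with earlier results of these data known, so they are not a separate test. Of 92 further motile cilia genes found in the table, 89 were tested and 0 passed; 87 lay below WT, at a median of -0.57 (log2 fold change). WT replicate 1 was the highest library for 84 of the 89 and at least 2 times the median in 61. The 5 others, highest elsewhere, were the multiciliation genes Gmnc, Ccno and Deup1, the factor Rfx3, and Spef1; they are named because they are the exceptions. Without WT replicate 1 the median was -0.03, with 49 of 89 below WT. Groups did not overlap in 9 of the 89, all lower, where 13.7% of all tested genes were lower without overlap.

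The most abundant of these ciliary genes showed how the pattern differs by gene. Tppp3, a tubulin-binding protein, was at 44.0, 22.2 and 21.3 CPM in WT and 18.7, 17.99 and 20.7 CPM in the Selk-/- libraries, so that WT replicate 1 was high and the groups did not overlap, but the difference did not pass (log2 fold change -0.61, 95% interval -1.32 to 0.10, edgeR adjusted p = 0.320). Iqcg, an axonemal protein, was at 26.5, 9.87 and 12.4 CPM in WT and 15.8, 9.36 and 18.6 CPM in the Selk-/- libraries, with WT replicate 1 highest and replicate 3 labelled Selk-/- next. Rsph3a, a radial spoke protein, was at 20.7, 17.5 and 16.0 CPM in WT and 15.9, 16.5 and 17.0 CPM in the Selk-/- libraries. Rfx3, which is also used outside multiciliated cells, was at 17.4, 13.7 and 16.7 CPM in WT and 13.1, 16.2 and 17.8 CPM in the Selk-/- libraries, and Drc7, of the dynein regulatory complex, at 19.7, 16.9 and 11.9 CPM in WT and 11.2, 13.6 and 17.7 CPM in the Selk-/- libraries. In these last 3, WT replicate 1 stood at 1.06 to 1.30 times the median.

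Of 39 further choroid plexus genes, all were tested and 0 passed. Of these, 26 lay above WT, at a median of 0.067 (log2 fold change), beside 8643 of the 17739 genes tested. Without WT replicate 1 the median was 0.045, with 17 of 39 below WT. WT replicate 2 was above the gene's median in 33 of 39 and replicate 3 labelled Selk-/- in 37, while WT replicate 3 was above it in 1. Replicate 2 labelled Selk-/- was above it in 21 of the 39. The 5 most abundant are transporters and a growth factor that other brain cells also express. Slc12a2, the sodium-potassium-chloride cotransporter of the apical membrane, was at 208, 185 and 194 CPM in WT and 205, 208 and 217 CPM in the Selk-/- libraries. Igf2, also made by leptomeningeal cells, was at 99.2, 154 and 91.9 CPM in WT and 112, 111 and 123 CPM in the Selk-/- libraries, and the anion exchanger Slc4a2 at 104, 115 and 85.1 CPM in WT and 87.0, 92.4 and 113 CPM in the Selk-/- libraries. Igf2 and Slc4a2 were highest in WT replicate 2, as 11 of the 16 secretory members were, and Slc12a2 was lowest there. The copper transporter Slc31a1 was at 77.1, 94.6 and 84.8 CPM in WT and 88.8, 95.7 and 87.5 CPM in the Selk-/- libraries, and the organic anion transporter Slc22a8, also present in brain endothelium, at 64.9, 89.6 and 76.5 CPM in WT and 116, 69.8 and 78.4 CPM in the Selk-/- libraries.

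**Figure D4:**
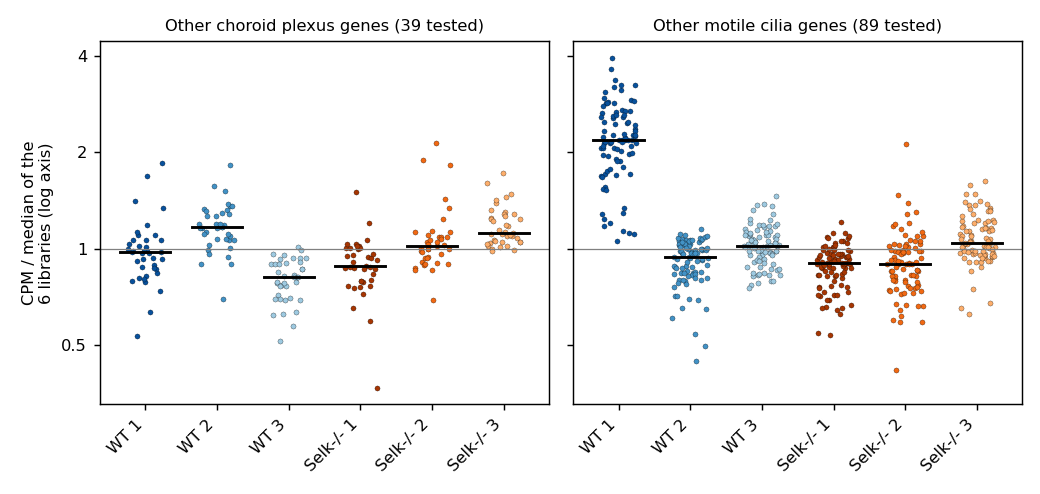
Level of 39 further choroid plexus genes (left) and 89 further motile cilia genes (right) in each library, as CPM divided by the gene's median over the 6 libraries (log axis); each point is a gene and the black lines are medians. The ciliary median is 2.18 in WT replicate 1 and 0.898 to 1.04 in the other 5 libraries, and the choroid medians run from 0.82 in WT replicate 3 to 1.17 in WT replicate 2.

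Across the transcriptome, 555 genes were at 2 or more times their median in WT replicate 1. Of these, 74 (13.3%) were in the 2 motile cilia lists, and the same 74 were 71.2% of the 104 ciliary genes tested. Sums of other cell markers in WT replicate 1 were less extreme. Astrocyte markers (12 genes) summed to 982, 851 and 750.0 CPM in WT and 960.5, 742 and 939 CPM in the Selk-/- libraries, and fibroblast markers (10 genes) to 736, 672 and 575 CPM in WT and 641, 536 and 676 CPM in the Selk-/- libraries, all with counts in every library. Both sums were highest in WT replicate 1, by a small margin, though the highest single astrocyte marker stood at 2.65 times its median there. B cell markers (10 genes, 9 with counts in every library) summed to 273, 240 and 266 CPM in WT and 211, 205 and 209 CPM in the Selk-/- libraries. That sum and the oligodendrocyte sum below were also highest in WT replicate 1, and the mural, T and NK cell and erythroid sums were not. Marker by marker, WT replicate 1 was highest in 4 of 12 astrocyte and 5 of 10 fibroblast markers. It was highest in 1 of 7 B cell and 2 of 11 oligodendrocyte markers tested, beside 22.1% of all tested genes. Neuron markers were at 68.4, 55.7 and 56.3 CPM in WT and 57.5, 173 and 70.0 CPM in the Selk-/- libraries, and oligodendrocyte markers at 1537, 1500.3 and 1398 CPM in WT and 1265, 1193 and 1209 CPM in the Selk-/- libraries. Endothelial markers were lowest in WT replicate 1, at 4745, 6241 and 5784 CPM in WT and 8211, 6069 and 5894 CPM in the Selk-/- libraries. Neutrophil markers were at 776, 495 and 1204 CPM in WT and 422, 6017 and 1094 CPM in the Selk-/- libraries, with replicate 2 labelled Selk-/- far above the rest. Whether any of these cells plays a part in the ciliary or secretory levels was not tested.

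Gene positions in the deposited table overlap in 15 of the 33 members, and for 6 of these an overlapping gene had at least 10% of the member's mean count. They are Folr1 (with Anapc15), Kcnj13 (Gigyf2), Dnah11 (Cdca7l), Spag17 (Wdr3) and Rarres2 (Lrrc61), each with a gene on the opposite strand, and Mia, with a gene on the same strand. The sources used here do not state how strand was handled in counting, so the counts of these 6 are uncertain. FPKM and counts did not keep a fixed ratio in every member; the gene length that the 2 values imply varied between libraries by 1.02-fold in the median member and by up to 1.46-fold. Tests and single-gene comparisons between libraries therefore rest on counts, while the class sums and the ratio of the classes rest on FPKM. Summed as CPM instead, the motile cilia genes were at 315, 112 and 132 CPM in WT and 101, 103 and 136 CPM in the Selk-/- libraries, and the secretory genes without Ttr at 337, 534 and 283 CPM in WT and 315, 445 and 479.8 CPM in the Selk-/- libraries, with the same highest library as in FPKM for each. The order of the other libraries in the ciliary sum depended on the unit. The second highest was replicate 3 labelled Selk-/- in CPM and WT replicate 3 in FPKM. The lowest was replicate 1 labelled Selk-/- in CPM and replicate 2 labelled Selk-/- in FPKM.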

How the data were processed

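RNA-seq libraries of microglia from WT and Selk-/- mice (3 each) were analysed. The authors used Hisat2 2.0.5 for alignment and stringtie 2.2.0 for quantification, per the labels' protocols, and deposited raw counts and FPKM per gene. The submitters' processing notes name Bowtie 0.12.2 and builds mm8 and mm9 instead, which contradicts this. The sources used here do not give the strand setting or the treatment of multiply mapped reads, and the table names no build.

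Deposited counts were tested in edgeR 4.0.16 (R 4.3.3): TMM, filterByExpr (17739 genes kept), robust quasi-likelihood fits, no covariate, Benjamini-Hochberg adjustment over all genes tested at 0.05, two-sided. Standard errors and 95% intervals came from the F statistic. Deposited FPKM values were used as they stand for levels between genes, and as log2(FPKM + 1) or log2(FPKM + 0.1) in limma 3.58.1 as alternatives, beside DESeq2 1.42.0, limma-voom with sample weights, other scalings and filters, each library left out in turn, and blocks on the split in small nucleolar RNA and on shared title numbers. The edgeR step was tested on simulated counts. These were drawn for each gene on its own, with no shift shared by many genes of a library, so they cannot speak to such shifts. Chi-square values per degree of freedom between libraries of 1 group were 14.4 to 39.1, far above sampling noise, and each library was counted once. A floor of 3 counts, which is 0.106 to 0.142 CPM by library, covers counting error only.

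The members, the lists and the alternatives were chosen with earlier results of these data known. All 33 members are named, as are the 5 most abundant genes of each further list; exceptions are said to be so. Of 103 names in the further ciliary list 92 genes were matched, 9 of them through a reference table of gene names, and 7 names were other names of a matched gene. Class sums and medians are descriptions with no test.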

Additional observations from a re-analysis of the deposited data

How the results depend on the processing

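No member passed adjusted p 0.05 under any of the 19 alternatives run, and Spag17 had no adjusted p in DESeq2. The lowest adjusted p was 0.0738 (DESeq2, Ccdc153). Over all genes, edgeR called 0 (3383 at an unadjusted p under 0.05), DESeq2 974 and limma-voom 1 (4930486L24Rik), and leaving out each library gave 0 to 59, the 59 being without replicate 1 labelled Selk-/-, and 1 (Clec10a) without replicate 2 labelled Selk-/-; both genes are named after the calls were seen. The median log2 fold change of the motile cilia genes ran from -0.99 to -0.094 when each library was left out, -0.094 being without WT replicate 1, and from -1.02 to -0.36 under the other alternatives. Their summed level, -0.78 as log2 of the ratio of group means, ran from -1.04 to -0.21, the latter without WT replicate 1. The secretory median was 0.018, ran from -0.13 to 0.31 when each library was left out, and was -0.41 with the snoRNA split as a block, a value that rests on replicate 1 labelled Selk-/-. The secretory sum, 0.057, ran from -0.081 to 0.27. The sign was the same under all alternatives in 11 of 15 motile cilia genes, 2 of 16 secretory genes and 1 of 2 ependymal secreted genes; the exceptions in the ciliary genes were Foxj1, Dnah5, Dnah6 and Spag17, each without WT replicate 1. The cause of these shifts was not tested. The titles share 2 numbers between the groups, 1 of them within a title of 2 numbers, and no source says that a number marks a pair; across genes the deviations of same-numbered libraries had a Pearson r of 0.051. In a paired fit added after seeing the data, with a replicate block on these numbers in the 4 libraries that carry them (1 residual degree of freedom), 19 genes and 0 members passed, against 29 genes and 0 members in those libraries with no block; the ciliary median was -0.66 against -0.87 and the secretory median 0.078 against 0.056.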
